A study of Mus musculus with 7 samples.

Results

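Complement C1q and a set of markers of tissue macrophages were followed through the donor-derived myeloid cells of mouse epidermis after bone marrow transplantation (BMT), in resident host cells and in keratinocytes. The 10 genes were taken by name: C1qa, C1qb and C1qc, which encode the chains of C1q, and Mrc1, Ms4a7, Cd163, Folr2, Pf4, Trem2 and Adgre1. All 10 were listed in the table of donor cells, which holds 15155 genes, and 8 were listed in the host table of 23737 genes, where Mrc1 and Folr2 were not among the rows. Over all tables the series lists 31907 genes.

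Cells came from epidermis 3 weeks after transplantation. Male C57BL/6 hosts (CD45.2) had been lethally irradiated and given C57BL/6 marrow from female donors (CD45.1). Donor CD11b+MHCII+ cells were sequenced as 3 libraries labelled BMT (replicates 1, 2 and 3) and 1 library labelled BMT plus T cells (BMT + T cells). CD45- keratinocytes came as 1 library under each label, and host CD11b+MHCII+ cells, CD45.2 and labelled BMT, as 1 library. The design text gives donor CD4 T cells and male antigen-specific CD8 Matahari T cells to all hosts, whereas the sample labels name T cells only for the libraries called BMT + T cells, so the comparison below is one of labels. The study pooled mice before sorting, and each library is therefore an average over animals. The short library names have 2 forms, shared by replicates 1 and 2 on one side and by replicate 3 and BMT + T cells on the other. This grouping is written as the experiment below, although no label states it.

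C1q is the recognition part of the classical complement pathway. It binds immune complexes, apoptotic cells and other targets, and, unlike most complement proteins, is made mainly by macrophages and dendritic cells rather than by the liver. Monocytes that enter a tissue and become macrophages commonly gain C1q together with scavenger and lipid receptors. Langerhans cells, the resident antigen-presenting cells of the epidermis, can also be replaced by monocytes when the original network is lost, and the study followed this replacement; its monocyte-derived Langerhans cells are called mLCs. The cluster names used here (Mono for classical monocytes, ISG monocytes for those with interferon-stimulated genes, Hmox1+ monocytes, S100a+ monocytes, MC for converting monocyte-derived cells, Mrc1+ macrophages, and cycling, resident and migrating mLCs) are the deposited annotation.

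The donor libraries held 2572, 8382 and 226 cells (BMT replicates 1, 2 and 3) and 719 cells (BMT + T cells), with median depths between 7022 and 13387 unique molecular identifiers (UMIs) a cell. The host library held 781 cells at a median of 4376 UMIs and a median of 14.0% mitochondrial UMIs, against 1.39% to 2.02% in the donor libraries. Any pair of libraries shared 0 to 7 cell barcodes. A level below is the mean over cells of UMIs per 10000 UMIs of the cell (CP10K). Means and tests used libraries with at least 20 cells in the cluster, which left BMT replicate 3 with Mono, Mrc1+ macrophages and resident mLCs. The Mrc1+ macrophages of that library were shallow, with a median of 2214 UMIs a cell against 10802 in its Mono cells.

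C1qa, C1qb and C1qc are neighbours on chromosome 4. In RefSeq (GRCm38.p6) they lie in the order C1qb, C1qc, C1qa within chr4:136880126-136898844, a stretch of 18719 bases, with 3600 bases between the first pair and 2979 between the second. The promoters of C1qb (chr4:136886151-136886450, minus strand) and C1qc (chr4:136892865-136893164, minus strand) are shown because the levels of these genes varied together across the clusters. Each runs 5′ to 3′ from 250 bases before the annotated start to 50 bases after it, and capitals mark GAGGAA, the core bound by the macrophage factor PU.1, and TGCTGA, a short Maf recognition element, on either strand.

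C1qb: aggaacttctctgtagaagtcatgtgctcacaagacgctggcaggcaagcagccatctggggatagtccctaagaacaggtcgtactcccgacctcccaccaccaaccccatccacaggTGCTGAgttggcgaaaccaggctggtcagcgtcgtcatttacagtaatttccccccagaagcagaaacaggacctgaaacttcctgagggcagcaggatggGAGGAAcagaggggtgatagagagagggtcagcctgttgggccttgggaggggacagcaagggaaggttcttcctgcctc

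C1qc: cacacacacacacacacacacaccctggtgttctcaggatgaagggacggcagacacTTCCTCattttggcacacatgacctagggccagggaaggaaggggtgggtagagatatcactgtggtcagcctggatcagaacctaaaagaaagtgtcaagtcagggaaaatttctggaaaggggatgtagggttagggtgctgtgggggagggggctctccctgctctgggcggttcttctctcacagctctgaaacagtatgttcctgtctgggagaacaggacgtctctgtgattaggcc

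The C1qb window held 1 GAGGAA and 1 TGCTGA, and the C1qc window held 1 GAGGAA on the other strand (TTCCTC) and no TGCTGA. Across all 32851 promoters of the table, 28.3% held GAGGAA or its complement and 19.5% held TGCTGA or its complement, so these letters are common. Promoters were matched for 8 of the 10 genes, all but C1qa and Adgre1.

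By the mean over libraries, C1q transcripts were most abundant in the Mrc1+ macrophages, next in the ISG monocytes, and lowest in the resident and migrating mLCs. Cycling mLCs had more than these, with means over 3 libraries of 13.6 CP10K for C1qa, 12.1 for C1qb and 7.88 for C1qc. In the Mrc1+ macrophages C1qa stood at 42.2, 31.4 and 24.4 CP10K in BMT replicates 1, 2 and 3, while the cells labelled BMT + T cells had 55.8. In the ISG monocytes it stood at 26.3 and 29.7 in BMT replicates 1 and 2 and at 35.1 with T cells, a range that overlapped that of the Mrc1+ macrophages. Resident mLCs gave 6.52, 7.30 and 2.59 in the BMT replicates and 6.72 with T cells, below every Mrc1+ macrophage value.

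C1qb and C1qc also had their highest means in the Mrc1+ macrophages, then the ISG monocytes, and their lowest in the resident and migrating mLCs. The order of the clusters between these differed. Mono lay below MC for C1qa (means of 14.0 and 15.4 CP10K) and above it for C1qb (20.1 and 15.0). In the Mrc1+ macrophages the mean over 4 libraries was 35.6 ± 16.9 CP10K (SD) for C1qb and 26.7 ± 10.5 for C1qc. The resident mLCs had 4.09 ± 1.01 and 2.56 ± 0.603. The ISG monocytes (n = 3) had 29.9 ± 6.82 for C1qb and 19.7 ± 3.27 for C1qc, so the spreads of the Mrc1+ macrophages and ISG monocytes overlapped. In BMT replicate 2 C1qb was higher in the ISG monocytes than in the Mrc1+ macrophages, at 23.3 against 20.9. The converting cells had C1qa at 13.4 to 18.0 CP10K in 3 libraries, which overlapped the 8.03 to 17.8 of the cycling mLCs. C1qa was at 3.62 and 4.40 in the migrating mLCs of the 2 libraries with enough cells.

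In Mono, the cluster of classical monocytes, C1q differed between libraries. C1qb there was at 8.65 and 11.3 CP10K in BMT replicates 1 and 2, against 27.7 in replicate 3 and 32.7 with T cells. The values of the experiments did not overlap for C1qb, nor for C1qa (6.32 and 10.2 against 16.4 and 23.0) or C1qc (4.54 and 7.30 against 16.02 and 22.1). This split was noticed in the data, runs with the experiment as read from the library names, and was not tested. For it and the like splits named below, the share of all genes that split in this way was not counted. The Mrc1 values in Mono, given below, overlapped between the experiments.

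**Figure D1:**
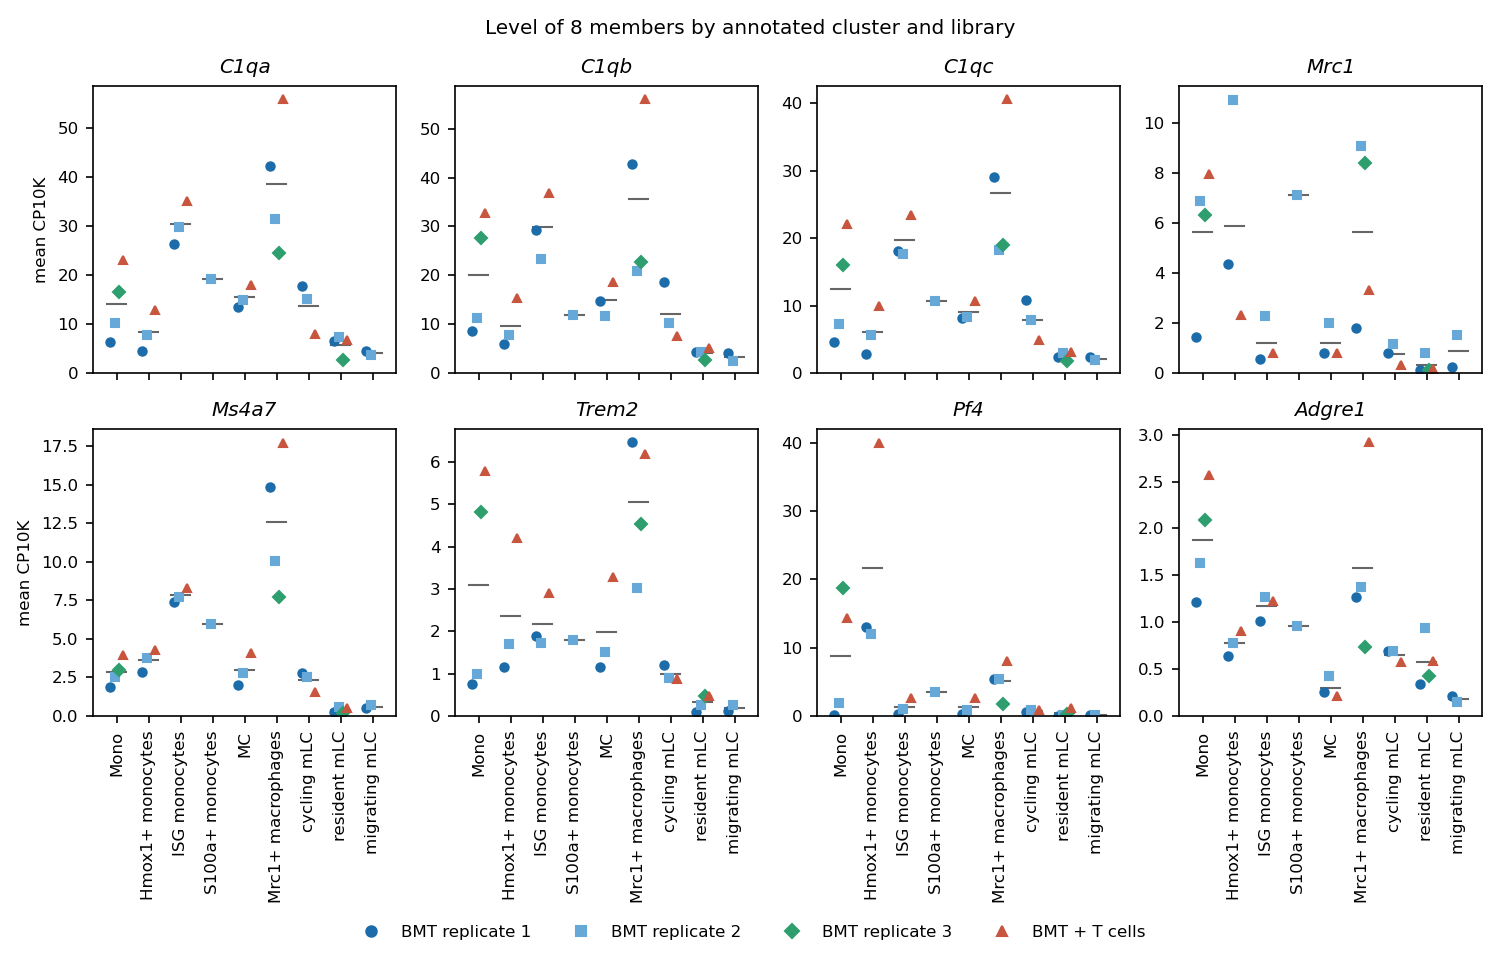
Mean level (CP10K, vertical axis, linear from 0) of 8 of the genes in each annotated cluster, with 1 point for each library that had at least 20 cells and a bar at the mean. C1qa, C1qb and C1qc peak in the Mrc1+ macrophages and are low in resident and migrating mLCs, Pf4 peaks in the Hmox1+ monocytes (40.0 CP10K with T cells), and the Mrc1 levels of Mono and the Mrc1+ macrophages overlap.

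Mrc1 (chr2:14229414-14332023) encodes the mannose receptor CD206, an endocytic receptor for glycans whose name the macrophage cluster bears. In that cluster it stood at 1.78, 9.07 and 8.40 CP10K in the BMT replicates and at 3.33 with T cells. In Mono it stood at 1.43, 6.87 and 6.31 and at 7.95, so the ranges of these clusters overlapped. Hmox1+ monocytes, at 4.37 and 10.9 in BMT replicates 1 and 2 and 2.31 with T cells, and the S100a+ monocytes of BMT replicate 2, at 7.14, were also in this range. Mrc1 was thus a marker of several of the monocyte-derived clusters against resident mLCs. In resident mLCs it lay at 0.127, 0.818 and 0.128 in the BMT replicates and at 0.173 with T cells. Migrating mLCs had less Mrc1 than the Mono cells of the same library in BMT replicates 1 and 2, the libraries with enough of them. The ranges of these clusters overlapped only across libraries, where migrating mLCs of replicate 2 lay above the 1.43 of Mono in replicate 1. The difference between migrating mLCs and Mono was not tested. The label of the Mrc1+ macrophages was checked against other genes below.

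Ms4a7 (chr19:11321039-11336146) encodes a four-pass membrane protein of macrophages. Of these genes, it stood most clearly higher in the Mrc1+ macrophages than in Mono. Its levels there were 14.8, 10.0 and 7.74 CP10K in the BMT replicates and 17.7 with T cells. Mono lay at 1.89, 2.52 and 2.96 and at 3.94, and no Mono value reached the lowest Mrc1+ macrophage value. The Mono values of the experiments did not overlap for Ms4a7 either. The ISG monocytes came next, between 7.42 and 8.31, a range that overlapped that of the Mrc1+ macrophages. The resident mLCs lay between 0.168 and 0.606.

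Trem2 (chr17:48346401-48352276) encodes a lipid-sensing receptor that signals through the adaptor Tyrobp. In the Mrc1+ macrophages it was at 6.46, 3.03 and 4.55 CP10K in the BMT replicates and at 6.19 with T cells. In Mono it was at 0.756 and 0.983 in BMT replicates 1 and 2, but at 4.82 in replicate 3 and 5.79 with T cells, the same split by experiment as for C1q.

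Pf4 (chr5:90772435-90773383) encodes the chemokine CXCL4, best known from platelets and also made by some tissue macrophages. It was highest in the Hmox1+ monocytes, with 13.1 and 12.0 CP10K in BMT replicates 1 and 2 and 40.0 with T cells. In Mono it was at 0.210 and 1.88 in BMT replicates 1 and 2 and at 18.7 in replicate 3 and 14.3 with T cells, again split by experiment. In the Mrc1+ macrophages that split was absent, with 5.40, 5.40 and 1.69 in the BMT replicates and 8.06 with T cells. The summed level of the 3 listed platelet markers stayed between 0.00846 and 0.115 CP10K in Mono, Mrc1+ macrophages and resident mLCs. In the Hmox1+ monocytes it was 0 in BMT replicate 1, 0.307 in replicate 2 and 0.0203 with T cells.

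Cd163 (chr6:124304636-124330529), the scavenger receptor for haemoglobin and haptoglobin, and Folr2 (chr7:101839988-101857190), a folate receptor of perivascular and other resident macrophages, were rare. Folr2 gave 3 UMIs in all donor cells, 1 in BMT replicate 1 and 2 in replicate 2. Cd163 gave 1, 90 and 121 UMIs in BMT replicates 1, 2 and 3 and 37 with T cells. Of these, 115 of the 121 in replicate 3 and 27 of the 37 with T cells were in Mono. In replicate 2 Mono held 22 in 547 cells and the Mrc1+ macrophages 53 in 2602 cells. The mean level there was still slightly lower in the Mrc1+ macrophages, by a log2 difference of -0.27 with a pseudocount of 0.1. The level of Cd163 in Mono was 1.12 in replicate 3 and 0.659 with T cells, against 0.0832 in replicate 2 and no UMI in replicate 1, which allows up to 0.0113.

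Adgre1 (chr17:57358581-57483529) encodes an adhesion G protein-coupled receptor long used to stain mouse macrophages. Its levels were 1.27, 1.38 and 0.739 CP10K in the Mrc1+ macrophages of the BMT replicates and 2.92 with T cells. In Mono they were 1.21, 1.63 and 2.09 in the BMT replicates and 2.57 with T cells, so the ranges of the clusters overlapped. Within Mono the values of the experiments did not overlap.

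**Figure D2:**
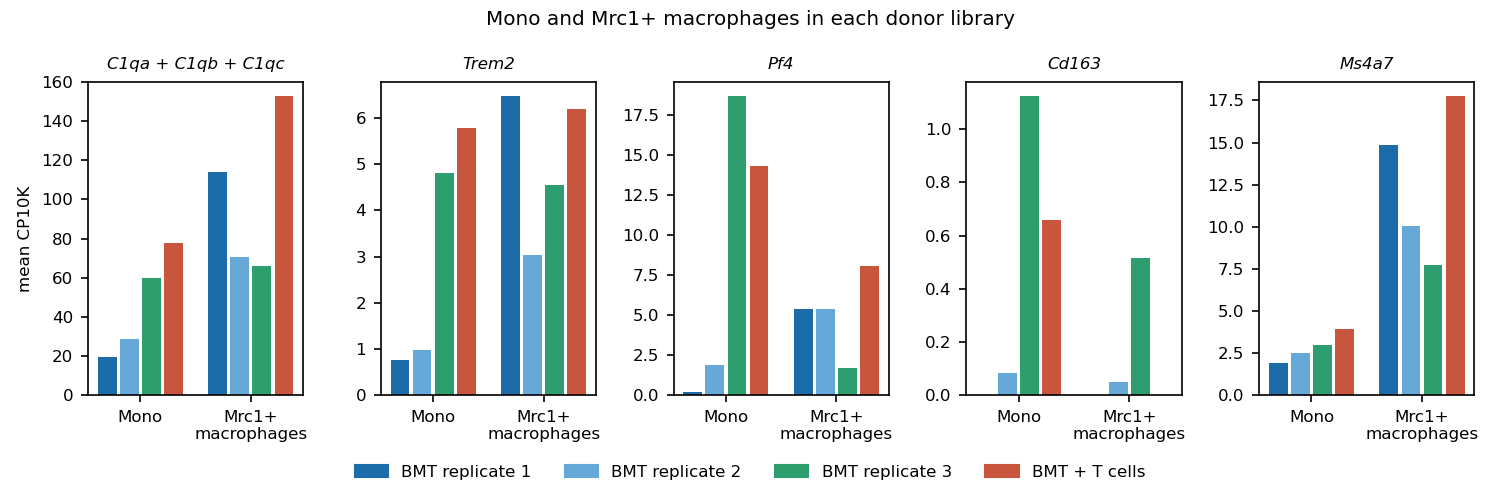
Level (CP10K, vertical axes from 0) of the summed C1q genes and of Trem2, Pf4, Cd163 and Ms4a7 in Mono and in the Mrc1+ macrophages, with 1 bar for each library. In Mono, replicate 3 and BMT + T cells stand above replicates 1 and 2 for C1q, Trem2, Pf4, Cd163 and Ms4a7. The Ms4a7 levels of Mono run from 1.89 to 3.94.

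The first question was which of these genes set the macrophage cluster apart from the monocytes it shares an origin with. The clusters were drawn by the authors from the same cells and values, so the tests describe the annotation and are no independent evidence for it. Across 27 profiles, each the mean of 1 cluster in 1 library, limma was fitted to log2(CP10K + 0.1) of 7267 genes with the library as a block, and a gene was called at a log2 fold change above 2 and an adjusted p under 0.05. Cd163 and Folr2 fell below the filter of 0.1 CP10K, and the other 8 were tested. Between the Mrc1+ macrophages and Mono, 1 of 8 was called higher, Ms4a7, against 0.220% of all genes tested (16 of 7267). Its log2 fold change was 2.09 ± 0.25 (SE, limma adjusted p = 3.89e-06), and it was higher in the Mrc1+ macrophages in 4 of 4 libraries.

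The C1q genes were not called in this comparison. Their log2 fold changes were 1.54 ± 0.37 for C1qa (SE, limma adjusted p = 0.0134), 1.27 ± 0.39 for C1qc (limma adjusted p = 0.0531) and 0.92 ± 0.38 for C1qb (limma adjusted p = 0.152). C1qa passed the p threshold but not the fold threshold, and it was higher in 4 of 4 libraries, whereas C1qb was higher in 3 of 4. Trem2 gave 1.12 (limma adjusted p = 0.0856), Pf4 0.35 (95% interval -1.31 to 2.02) and Adgre1 -0.35 (-0.89 to 0.20). For Mrc1 the difference was -0.03 with an interval of -0.90 to 0.84, so a difference of up to about 0.9 on the log2 scale in either direction was not detectable. The median over the 8 genes was 1.02 and that of all genes 0.03. Without BMT replicate 1, Ms4a7 was at 1.82 and under the fold threshold, so no gene of the 10 was then called, nor with a pseudocount of 1, where it was at 1.79.

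Against resident mLCs the same genes were far apart. Here 7 of 8 were called higher in the Mrc1+ macrophages, all but Adgre1, against 2.46% of all genes tested (179 of 7267). The log2 fold change was 4.76 for Ms4a7 (limma adjusted p = 8.24e-13), 3.81 for Mrc1, 3.76 for Pf4 and 3.68 for Trem2. It was 3.28 for C1qc, 3.00 for C1qb and 2.75 for C1qa, and all 7 were higher in 4 of 4 libraries. Adgre1 was higher by 1.24 (limma adjusted p = 7.63e-04), in 4 of 4 libraries but below the fold threshold. The median of the 8 was 3.48, against -0.12 over all genes. On means of the deposited log values, which shrink differences of low genes, 4 of the 7 kept the call, and Mrc1, Pf4 and Trem2 did not.

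From Mono to resident mLC, 6 of the 8 were called lower, against 2.56% of all genes tested (186 of 7267). Mrc1 was lower by 3.85 on the log2 scale, written as a log2 fold change of -3.85, Pf4 had -3.41, Ms4a7 -2.67 and Trem2 -2.55. C1qb had -2.09 and C1qc -2.01, barely past the fold threshold. C1qa, at -1.20 (limma adjusted p = 0.0171), and Adgre1, at -1.58, were not called. C1qa was at 6.52 CP10K in the resident mLCs and 6.32 in the Mono of BMT replicate 1, so in that library the levels were alike, whereas in replicate 3 they were 2.59 and 16.4. The count fell to 2 with a pseudocount of 1, Mrc1 and Pf4, and to 0 on means of the deposited log values.

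**Figure D3:**
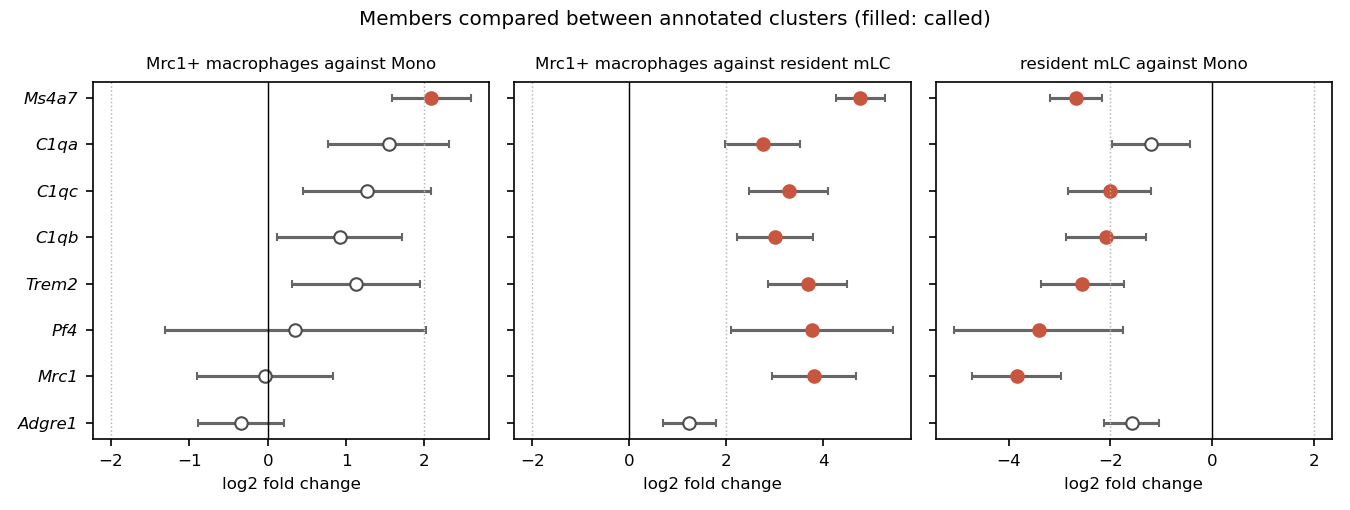
Log2 fold change (horizontal axes) with its 95% interval from limma for the 8 tested genes in the comparisons of Mrc1+ macrophages with Mono, Mrc1+ macrophages with resident mLC, and resident mLC with Mono. Filled points are called, and dotted lines mark a log2 fold change of 2 in either direction. Ms4a7 alone is filled on the left, 7 genes are filled in the middle, and 6 are filled on the right.

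Shares of cells gave the same picture of a broad C1q signal. With every cell thinned to 2000 UMIs, and shallower cells left out, C1qa was detected in a mean of 85.7% of the Mrc1+ macrophages, 76.8% of the ISG monocytes, 45.9% of Mono and 40.2% of the resident mLCs. The unthinned means were 79.2%, 82.8%, 57.3% and 55.3%. Ms4a7 was detected after thinning in 77.5% of the Mrc1+ macrophages, 26.1% of Mono and 4.56% of the resident mLCs, and Mrc1 in 40.0%, 43.4% and 4.44%. Trem2 was found in 53.4% of the Mrc1+ macrophages and 29.8% of Mono. In BMT replicate 3 only 23 of 45 Mrc1+ macrophages reached 2000 UMIs.

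In Mono, cells with and without C1q were both common. The cells without a single C1q UMI made up 31.7%, 23.2% and 35.4% of Mono in the BMT replicates and 22.2% with T cells, while those at 50 CP10K or more made up 14.6%, 20.1% and 37.8%, and 50.8% with T cells. After thinning, Trem2 was found in 69.6% of the 46 Mono cells with C1q and 12.1% of the 33 without in BMT replicate 3. With T cells the shares were 73.7% of 38 cells and 0 of 19 cells, which allows a share of up to 15.8%. Pf4 gave 67.4% and 6.06% in replicate 3 and 57.9% and 0 (of the same 19 cells) with T cells. In the Mono of these libraries Trem2 and Pf4 were thus found mostly in the cells that had C1q. In BMT replicates 1 and 2 the shares for Trem2 were 10.9% and 9.09%, and 18.4% and 7.96%, so the genes went together less closely in the cells of those libraries. Cells of 1 library are not replicates, and these shares are descriptions.

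Cd163 was found in part of the Mono cells. In BMT replicate 3 the 30 Mono cells with a Cd163 UMI had 28.8 CP10K of Pf4 and 34.6 of C1qb, against 12.8 and 23.7 in the 52 without. Their Plac8, a gene of fresh blood monocytes, was at 2.17 against 20.5, and their Ly6c2 at 1.99 against 12.6. The 11 such cells of the BMT + T cells library had 26.3 of Pf4 against 11.8 and 1.10 of Plac8 against 6.28, and the 11 of BMT replicate 2 had 17.7 against 1.55 and 6.62 against 24.6. Trem2 was higher in the cells with Cd163 in BMT replicates 2 (2.27 against 0.956) and 3 (7.18 against 3.46). With T cells Trem2 was lower in them (4.35 against 6.09), as were Ms4a7 (3.57 against 4.02) and Adgre1 (1.59 against 2.78). The cells with Cd163 were deeper, with medians of 15574 against 8575 UMIs in replicate 3 and 7265 against 5356 in replicate 2. With T cells the medians were closer, at 12146 against 11220. The part of depth in the differences between cells with and without Cd163 was not tested.

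The share of each chain gene among C1q UMIs differed between clusters in the same library. C1qa made up 31.7%, 35.2% and 28.2% of the UMIs of C1qa, C1qb and C1qc in the Mono cells of the BMT replicates and 29.1% with T cells. In the Mrc1+ macrophages it made up 37.2%, 42.5% and 35.7%, and 36.1% with T cells. In the resident mLCs it made up 50.4%, 49.3% and 34.7%, and 43.5% with T cells. The order from Mono to Mrc1+ macrophages to resident mLC was the same in 3 of the 4 libraries, with exact 95% binomial intervals that did not overlap. In BMT replicate 3 the intervals of the last pair overlapped (34.1% to 37.4% and 31.8% to 37.8%).

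Over all cells of a library the C1qa share was 36.5%, 42.5% and 30.5% in the BMT replicates and 36.2% with T cells, so Mono lay below and resident mLC above its own library in 4 of 4. The libraries also differed from each other in this share. These intervals cover counting error only. How much of the C1q in resident mLCs came from free RNA in the droplets was not tested.

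**Figure D4:**
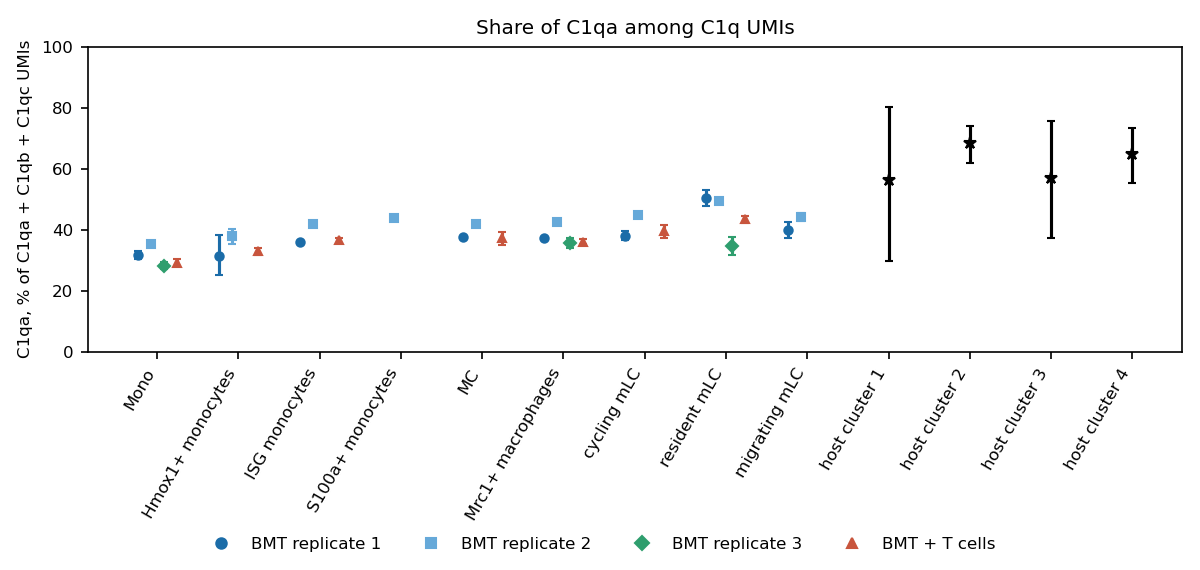
Share of C1qa among the UMIs of C1qa, C1qb and C1qc (percent, vertical axis from 0 to 100) by cluster, with 1 point for each donor library with at least 20 cells and 1 for each host cluster with a C1q UMI. Bars are exact 95% binomial intervals. In each donor library the share is lower in Mono than in resident mLC, and host clusters 2 and 4 lie at 68.3% and 64.7%.

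The deposited latent time orders cells from 0 to 1 by RNA velocity of the same data. Along it, C1q was high early and low late. The sum of the C1q genes was 85.6, 48.5 and 77.0 CP10K in the BMT replicates and 93.4 with T cells in cells of latent time 0.2 to 0.4. Between 0.6 and 0.8 it was 12.0, 4.27 and 4.92, and 5.51 with T cells. Most of the drop lay before 0.6, since the bin from 0.4 to 0.6 already held 10.3 to 19.7. Mrc1 was highest between 0.2 and 0.4 in 4 of 4 libraries, at 1.14 to 6.72. Its later course differed, and BMT replicate 1 had 1.05 between 0.6 and 0.8 after 0.371 between 0.4 and 0.6. Ms4a7 in BMT replicate 1 was an exception, with 5.83 between 0.6 and 0.8, where the other libraries had 0.221 to 0.445.

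**Figure D5:**
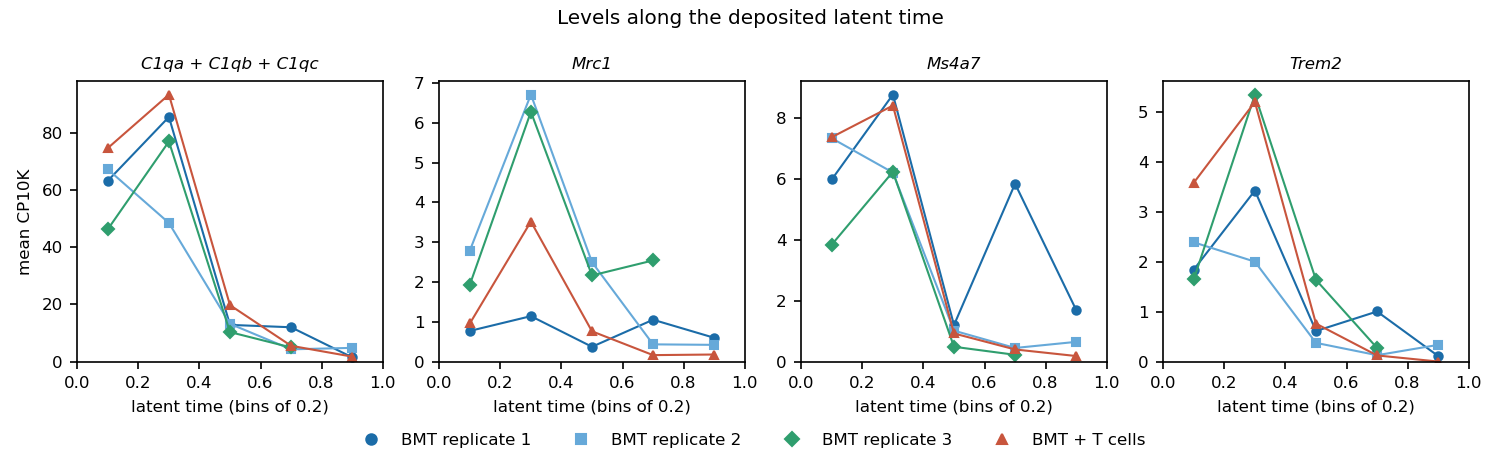
Mean level (CP10K, vertical axes from 0) of the summed C1q genes, Mrc1, Ms4a7 and Trem2 in bins of 0.2 of the deposited latent time (horizontal axes), with 1 line for each library and only bins of at least 20 cells. The C1q sum falls to 10.3 to 19.7 in the bin from 0.4 to 0.6 in all 4 libraries, and Ms4a7 of BMT replicate 1 rises again to 5.83 in the bin from 0.6 to 0.8.

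The second question was whether the library labelled BMT + T cells differed from the libraries labelled BMT. None of the 9 genes tested was called at a log2 fold change above 1 and an adjusted p under 0.05, and neither was any other gene (0% of 7345), although 352 had a p under 0.05 before adjustment in limma. With equal weight for the 3 clusters present in all 4 libraries, the log2 difference was 0.80 for C1qa (95% interval 0.13 to 1.47), 0.90 for C1qb (0.25 to 1.55) and 0.92 for C1qc (0.27 to 1.57). Pf4 differed by 2.10 (0.24 to 3.97), Trem2 by 1.01 (-0.08 to 2.09) and Mrc1 by -0.02 (-2.13 to 2.09). The limma adjusted p was 0.949 or above for all 9. Without BMT replicate 3 the count was 2 of the 10 genes, Pf4 at 2.56 (limma adjusted p = 2.06e-13) and Trem2 at 1.40 (limma adjusted p = 6.66e-05), among 202 genes called. The remaining BMT libraries are then both of the other experiment, and experiment and label cannot be told apart there. With the experiment as a term, Pf4 was called higher at 1.19 and Cd163 lower at -1.12 (limma adjusted p = 0.0230 and 0.00182), among 141 genes called. That fit left 1 residual degree of freedom. The Cd163 level of replicate 3 in the Mrc1+ macrophages, 0.517 CP10K, rests on 2 UMIs in 1 cell, and its pooled level there was 0.0772.

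Within the Mrc1+ macrophages alone none of 9 was called either, nor any other gene (0% of 7111), although 215 had a p under 0.05 before adjustment in limma. C1qa differed by 0.81 (95% interval -0.23 to 1.84), C1qb by 1.03 (-0.13 to 2.20) and Adgre1 by 1.34 (0.25 to 2.43). Each of the C1q genes, and Adgre1, was higher in the library labelled BMT + T cells than in any BMT replicate. For how many of all genes this held was not counted. With 1 library under the label, limma takes its spread from the other 3. With the experiment as a term, 3 of the 10 were called: Pf4 at 2.19 and Adgre1 at 1.85 were higher, and Cd163 at -2.62 was lower, a value that rests on the same 2 UMIs of replicate 3. That term left 1 residual degree of freedom and called 1998 genes.

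The label of the Mrc1+ macrophages was compared with lists of markers. Their classical monocyte markers, summed over 8 genes, were at 24.4 to 53.5 CP10K, against 106 to 192 in Mono and 1.74 to 2.18 in resident mLCs. Their Langerhans cell markers were at 7.69 to 16.1, against 2.40 to 4.74 in Mono and 89.6 to 122 in resident mLCs. Against Mono, 5 of 8 monocyte markers were called lower, Plac8 at -4.28 and Ly6c2 at -2.90 among them, beside 0.193% of all genes tested. Of 9 Langerhans cell markers 1, Mfge8 at 2.43, was called higher, beside 0.220%, with Ltc4s at 1.75 not called. Against resident mLCs, 5 of 8 monocyte markers were called higher, led by Fn1 at 4.41 and Chil3 at 4.38, beside 2.46% of all genes tested. There 8 of 9 Langerhans cell markers were called lower, led by H2-M5 at -5.13 and Cldn1 at -4.94, beside 1.05%.

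Markers of other cells were low. Summed T cell markers were at 0.0694 to 0.178 CP10K in the Mrc1+ macrophages and keratinocyte markers at 0.844 to 2.50. Neutrophil markers were at 1.21 to 9.25 there, highest with T cells, and S100a8 was called higher than in resident mLCs at 2.64 (1 of 5 neutrophil markers tested, beside 2.46%). The other leading values of these lists were not called: S100a9 (2.41 against Mono and 2.44 against resident mLCs), Csf3r (-0.69 against Mono), Krt14 (1.18 and 1.25), Krt10 (0.52 and 0.58) and the mast cell receptor Kit (0.06 and -1.21). T cell, platelet and fibroblast markers passed the filter in none of the cluster fits.

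Other complement genes were counted in the same comparisons. Of 14 tested, none was called between the Mrc1+ macrophages and Mono (0.220% of all genes higher and 0.193% lower), where Itgax, a chain of complement receptor CR4, was at 1.94 (limma adjusted p = 6.16e-06), C4b at -1.48, Lrp1 at 0.51 and Cr1l at -0.50. Against resident mLCs 5 of 14 were called higher, beside 2.46% of all genes: Lrp1 at 3.67, the anaphylatoxin receptor C3ar1 at 3.66, the central component C3 at 3.21, the receptor C5ar1 at 2.74 and the integrin chain Itgb2 at 2.12. From Mono to resident mLC 5 of 14 were called lower, beside 2.56% of all genes, C3ar1 at -3.62, C3 at -3.58, Lrp1 at -3.16, C5ar1 at -2.31 and C4b at -2.08. The median over the list was -0.16 against Mono and 0.95 against resident mLCs, beside 0.03 and -0.12 over all genes.

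Other genes of tissue macrophages were read against the same shares of all genes. None of 18 was called against Mono, where the leading values were F13a1 at -1.86, Ccl24 at 1.75, Cbr2 at -1.495 and Clec10a at -1.40, so members of this list lay on both sides of 0. Against resident mLCs 6 of 18 were called higher, beside 2.46%, led by the chemokine Ccl24 at 6.06, the lysosomal protease Lgmn at 3.66, the Fc receptor Fcgr1 at 3.20 and the scavenger receptor Stab1 at 3.14. From Mono to resident mLC 8 of 18 were called lower, beside 2.56%. Of 13 genes of Trem2 signalling and lipid-laden macrophages, 1 was called higher against Mono, beside 0.220%, Spp1 (osteopontin) at 3.05, with Cd63 at 1.95, Cd9 at 1.56 and Ctsl at 1.25 not called. Against resident mLCs 4 were called higher, beside 2.46%, Fabp5 at 4.25, Apoe at 3.62, Ctsl at 3.50 and Ctsb at 2.05.

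The genes fell into patterns when their profiles were set side by side. Over the 27 profiles, with each library's mean removed, Ms4a7 and Trem2 had correlations of 0.92 and 0.88 with the mean of the C1q genes, Adgre1 0.65, Mrc1 0.58 and Pf4 0.47. Pf4 was closer to Mrc1, at 0.84, and Trem2 had 0.79 with it. Of the 7267 genes, those most like C1q were Cd300c2 and Lair1, both at 0.92, Tmem86a at 0.90, Timp2 at 0.89, and Abhd12, Itgb5, Tmem37 and Cyp4f18 at 0.87. Those most like Mrc1 were Dab2 at 0.96, Atp2b1, Zeb2, Klf4 and Camk2d at 0.93, Metrnl at 0.92, and BC005537 and Pstpip1 at 0.91. Profiles of 1 library share its cells' depth and preparation, and these values describe the profiles only.

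Host cells, sorted by the same markers, had little of these transcripts. Of all 781 cells, 80 held a C1qa UMI, 33 a C1qb UMI and 27 a C1qc UMI, or 10.2%, 4.23% and 3.46%. After thinning, C1qa was found in 5.47% of 603 host cells. The C1qa level was 0.690 CP10K over all host cells, highest in clusters 4 and 2 at 2.06 and 1.43, and 0 in clusters 5, 6 and 7, where 3 UMIs would have given 0.0201, 0.171 and 0.182. Of the 406 C1q UMIs, 66.01% were C1qa (exact 95% interval 61.2% to 70.6%), above every donor cluster that had at least 20 cells. Adgre1 gave 98 UMIs, Ms4a7 47, Trem2 11, and Pf4 and Cd163 3 each. The host library was sorted and sequenced as 1 sample at lower depth and with more mitochondrial UMIs, so host and library cannot be told apart.

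Keratinocytes were close to 0 for all 10 genes. The library labelled BMT held 2 of their UMIs in 2836 cells, and the library labelled BMT + T cells held 52 in 2590 cells, 41 of them in 2 cells.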

How the data were processed

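Single-cell libraries were made with the 10x 5′ kit. The deposited expression values were the natural log (ln) of 1 plus the UMIs per 10000 of a cell, and the submitters' processing notes name kallisto, bustools, Seurat and GRCm38 for what the authors did. The mitochondrial column was a percentage of UMIs computed by the authors, and the latent time a fraction from 0 to 1 that the authors derived from RNA velocity. Undoing the log gave whole UMI counts for 100% of 28329689 donor, 1755429 host and 15311900 keratinocyte values within 0.001, and cell depths came from the same step. All deposited cells and the authors' Leiden clusters were kept. Doublets had been removed by the authors with DoubletFinder, and none were sought again. The stated limits of 500 genes and 20% mitochondrial UMIs were tried as an alternative.

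CP10K was averaged over the cells of each library and cluster with at least 20 cells (27 profiles), and genes averaging 0.1 CP10K or more entered limma 3.58.1 (R 4.3.3, trend and robust settings) as log2(CP10K + 0.1), so fold changes of low genes are understated. Adjusted p-values are Benjamini-Hochberg over all genes of the fit. Cluster fits had cluster and library as terms, and label fits had label alone. The libraries are pools of mice. In the cluster fits the p-values measure the spread left after the cluster and library terms, shared over all 27 profiles. In the label fits they measure the spread between libraries. The fits were tested on simulated data. Thinning drew 2000 UMIs from each cell that had them (seeded). Loci and promoters came from RefSeq (GRCm38.p6). Exact binomial intervals are at 95%, and a count of 0 was read against 3 UMIs or cells. Python 3.11.15, NumPy 2.4.6, pandas 2.3.3, SciPy 1.17.1 and matplotlib 3.10.9 were used.

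The 10 genes and all lists were chosen with earlier results of these data known. Named were the 10 genes, for each list the 4 genes (2 for markers of other cell types) with the largest absolute log2 fold change of the Mrc1+ macrophages against Mono and against resident mLCs, and the 8 genes most correlated with C1q and with Mrc1. Beyond that rule, Itgb2 against resident mLCs, the complement genes from Mono to resident mLC, and Plac8 and Ly6c2 in the Cd163 cells were named after their values were seen.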

Additional observations from a re-analysis of the deposited data

Results flagged for a closer look

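In 27 combinations of gene and cluster with 4 libraries, 3 had a library far from the others by Dixon's test, which flags about 1 in 20 groups by chance. Cd163 in the Mrc1+ macrophages was at 0.517 CP10K in BMT replicate 3. That mean rests on 2 UMIs in 1 cell of low depth, and the pooled level of the 45 cells was 0.0772 CP10K. C1qa in the resident mLCs was at 2.59 CP10K in BMT replicate 3, against 6.52 to 7.30 in the other libraries. Mrc1 in the resident mLCs was at 0.818 CP10K in BMT replicate 2, against 0.127 to 0.173 in the other libraries.

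In the keratinocytes labelled BMT + T cells, 6 of the genes had more than 3 UMIs: C1qa 5, C1qb 12, C1qc 8, Mrc1 4, Pf4 12 and Trem2 8. The keratinocytes labelled BMT held 2 UMIs of the 10 genes in 2836 cells. Of the 52 UMIs of the 10 genes in the 2590 keratinocytes of the other label, 41 were in 2 cells that each held UMIs of at least 3 of the genes. The first, annotated Basal, had 11 UMIs of C1qb, 10 of Pf4 and 6 of Trem2 beside 6 of Tyrobp, an adaptor of myeloid receptors, and 942 of Krt14. The second had 2 of C1qa and 2 of Pf4 beside 350 of Krt5. Their depths were 19683 and 21328 UMIs, against a library median of 8834. Whether these droplets held more than 1 cell was not tested.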

How the results depend on the processing

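The counts of genes called against Mono, against resident mLCs and from Mono to resident mLC were 1, 7 and 6. With a pseudocount of 1 they were 0, 7 and 2, and with the mean of the deposited log values 0, 4 and 0. With a single library left out they ran from 0 to 1, from 6 to 7 and from 4 to 7. The count of 0 came without BMT replicate 1. Label counts were 0 in both fits. With the experiment as a term they were 2 over the equal-weight clusters and 3 within the Mrc1+ macrophages, and with a library left out they ran from 0 to 2 and were 0. Of the 59 alternative counts, 50 were within 1.5 times the main count. Of 312 alternative fold changes across clusters, 281 kept direction and call, 25 lost the call and 6 turned direction; of 176 between labels, the numbers were 162, 0 and 8, and 6 gained a call.

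Every change of direction concerned a gene with no call in the main comparison. Mrc1 against Mono was 0.078 in cells passing the stated filter and from -0.18 to 0.37 with a library left out. Pf4 against Mono was -0.019 with a pseudocount of 1 and from -0.91 to 1.60, and Adgre1 from -0.52 to 0.0011. Between labels, Mrc1 was 0.016 with a pseudocount of 1, 0.20 with log means and from -0.61 to 0.47. Cd163 between labels was -0.13 with a pseudocount of 0.01, -1.12 with the experiment as a term, and -0.33 and -0.074 without BMT replicates 1 and 2 in turn; without replicate 3 it fell below the filter. The causes were not tested. The cluster fits had the library as a block, and without it the counts were again 1, 7 and 6. No paired analysis by replicate number was possible between the labels because BMT + T cells is a single library with no number shared with BMT. Low levels such as those of Cd163, Folr2 and the host cells are limited by depth, and Mrc1+ macrophages of BMT replicate 3 by 45 shallow cells.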
